A study of Mus musculus with 217 samples.

Results

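The LacQ140_A mice carried 1 mutant huntingtin (m*Htt*) allele that was repressed from conception, and at 12 months of age their striatum was compared with that of wild-type (WT) mice. Members were the striatal libraries of the 12-month count table from LacQ140_A mice (Hdh(LacO-140Q/+) together with the beta-actin-LacIR tg, 10 mice, 5 females and 5 males) and from WT mice (Hdh(LacO-+/+) with the same beta-actin-LacIR tg, 9 mice, 4 females and 5 males), 19 of 217 libraries in the series. Both groups were on C57BL/6, both carried the lac repressor transgene under the beta-actin promoter, and neither received isopropyl β-D-1-thiogalactopyranoside (IPTG). In the knocked-in allele, lac operators flank the start site of *Htt*, so that the repressor binds there unless IPTG, a lactose analog, is given. The comparison therefore shows which transcripts differed from WT at 12 months although the allele had been repressed for life. The study describes this repression as a moderate lowering of m*Htt*, and it is taken as partial here. Reference groups of the same age and tissue were LacQ140 mice, of the same genotype as LacQ140_A but given IPTG from embryonic day 5 without withdrawal (9 mice), and WT mice given IPTG in the same way (WT + IPTG, 10 mice).

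Several features limit the groups as a model. The repressor transgene is driven by a promoter active throughout the body, the knock-in derives from targeted embryonic stem cells backcrossed to C57BL/6J, and a floxed selection cassette was placed upstream of *Htt*. Cages were uniform for sex, genotype and treatment, so that cage and group cannot be told apart. The WT mice were littermates per a figure legend of the study, and no source used here ties single mice to litters. The p-values set changes against the spread between mice, estimated over all groups of a tissue and age.

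Huntington's disease is caused by expansion of the CAG repeat in *Htt*, which lengthens a polyglutamine stretch in huntingtin. The striatum is affected first and most, and nearly all its neurons are GABAergic spiny projection neurons, which receive dopamine through D1 receptors (direct pathway) or D2 receptors (indirect pathway). In patients and mouse models these neurons lose transcripts that define them, including receptors, cAMP signaling enzymes and neuropeptides, well before many cells die.

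Repression acts at the *Htt* promoter, so the reference sequence of its last 250 bases upstream of the start is shown (RefSeq, GRCm38.p6, plus strand, chr5:34761490-34761739). The inserted operators are not part of this reference. Capitals mark a cAMP response element (CRE, TGACGTCA), whose first base lies at -14 from the start.

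Htt promoter: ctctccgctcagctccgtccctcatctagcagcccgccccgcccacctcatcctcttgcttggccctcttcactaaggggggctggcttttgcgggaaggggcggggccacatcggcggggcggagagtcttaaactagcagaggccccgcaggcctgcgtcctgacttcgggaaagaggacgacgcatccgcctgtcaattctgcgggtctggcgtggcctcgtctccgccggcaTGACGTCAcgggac

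Summed counts of the 19 libraries lay between 36106735 and 46474889. The sex label matched the sex-linked transcripts in 57 of 57 striatal libraries of this age. Markers of thalamus, which borders the dissected tissue, summed to 25.97 to 57.69 CPM (counts scaled to an equal library total) in 7 LacQ140_A libraries, but to 97.08, 124.2 and 226.8 CPM in males 1, 4 and 5. In WT the same sum was 26.58 to 53.11 CPM in 8 libraries and 114.9 CPM in male 5. None of the 5 thalamus markers passed the test between the groups. Without any single library the number of genes called lay between 985 and 1214.

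*Htt* was lower in LacQ140_A mice. In WT its level was 117.8 CPM at the lowest, 136.8 at the median and 149.9 at the highest, and in LacQ140_A 71.39, 90.95 and 116.7. No LacQ140_A library reached the lowest WT library, although the highest, of male 3, came within about 1 CPM of it. The log2 fold change was -0.52 (SE 0.069, adjusted p = 6.5e-08, edgeR quasi-likelihood test). It was -0.58 (SE 0.085) in females and -0.45 (SE 0.080) in males. The counts add the mutant and the WT allele, so the level of m*Htt* alone was not measured here. In LacQ140 mice, with the allele derepressed, *Htt* was also below its control, at a mean of 111.0 CPM ± 10.9 (SD, n = 9) against 146.2 CPM ± 11.2 (n = 10) in WT + IPTG. The log2 fold change there was -0.40, and the difference between the effects did not pass the test (-0.12, adjusted p = 0.79).

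In the striatum of LacQ140_A mice, 441 genes were higher than in WT and 675 were lower at 12 months, at an adjusted p under 0.05 and a change of at least 20% (called, below). These 1116 genes made up 3.15% of 35386 genes tested, with 1.25% higher and 1.91% lower. The median absolute log2 fold change of the called genes was 0.445, while 69 genes rose and 91 fell by at least 1 on the log2 scale. For 57 of the higher and 174 of the lower genes the LacQ140_A and WT libraries did not overlap. Over all genes 260 did not overlap, or 0.735%.

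The 8 largest decreases among genes without overlap, at a mean log2 CPM of at least 1, were of 1.34 to 2.06 on the log2 scale. *Gpx6*, a glutathione peroxidase, was at 5.193, 12.32 and 15.31 CPM (lowest, median and highest) in WT and at 1.56, 2.731 and 4.414 CPM in LacQ140_A. On the log2 scale the difference was -2.04 (SE 0.160, adjusted p = 1.2e-15). *Ddit4l*, an inhibitor of mTOR signaling, was at 23.19, 26.78 and 32.32 CPM in WT and at 8.809, 10.43 and 12.21 CPM in LacQ140_A. Every LacQ140_A library thus held less *Ddit4l* than any WT library, by -1.37 on the log2 scale (SE 0.087, adjusted p = 7.9e-20). *Mafa*, a transcription factor best known from the pancreatic beta cell, went from 4.515, 5.562 and 6.474 CPM to 1.028, 1.325 and 1.583 CPM (log2 fold change -2.06, adjusted p = 7.8e-21). The other 5 of the 8 largest decreases fell by 1.34 to 1.94 on the log2 scale. They were *Slc4a11* (a membrane transporter, -1.94), *Tmprss6* (a serine protease that lowers hepcidin, -1.65), *Sec14l3* (a lipid-binding protein, -1.63), *Phex* (an endopeptidase of phosphate balance, -1.36) and *Krt9* (a keratin, -1.34).

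**Figure D1:**
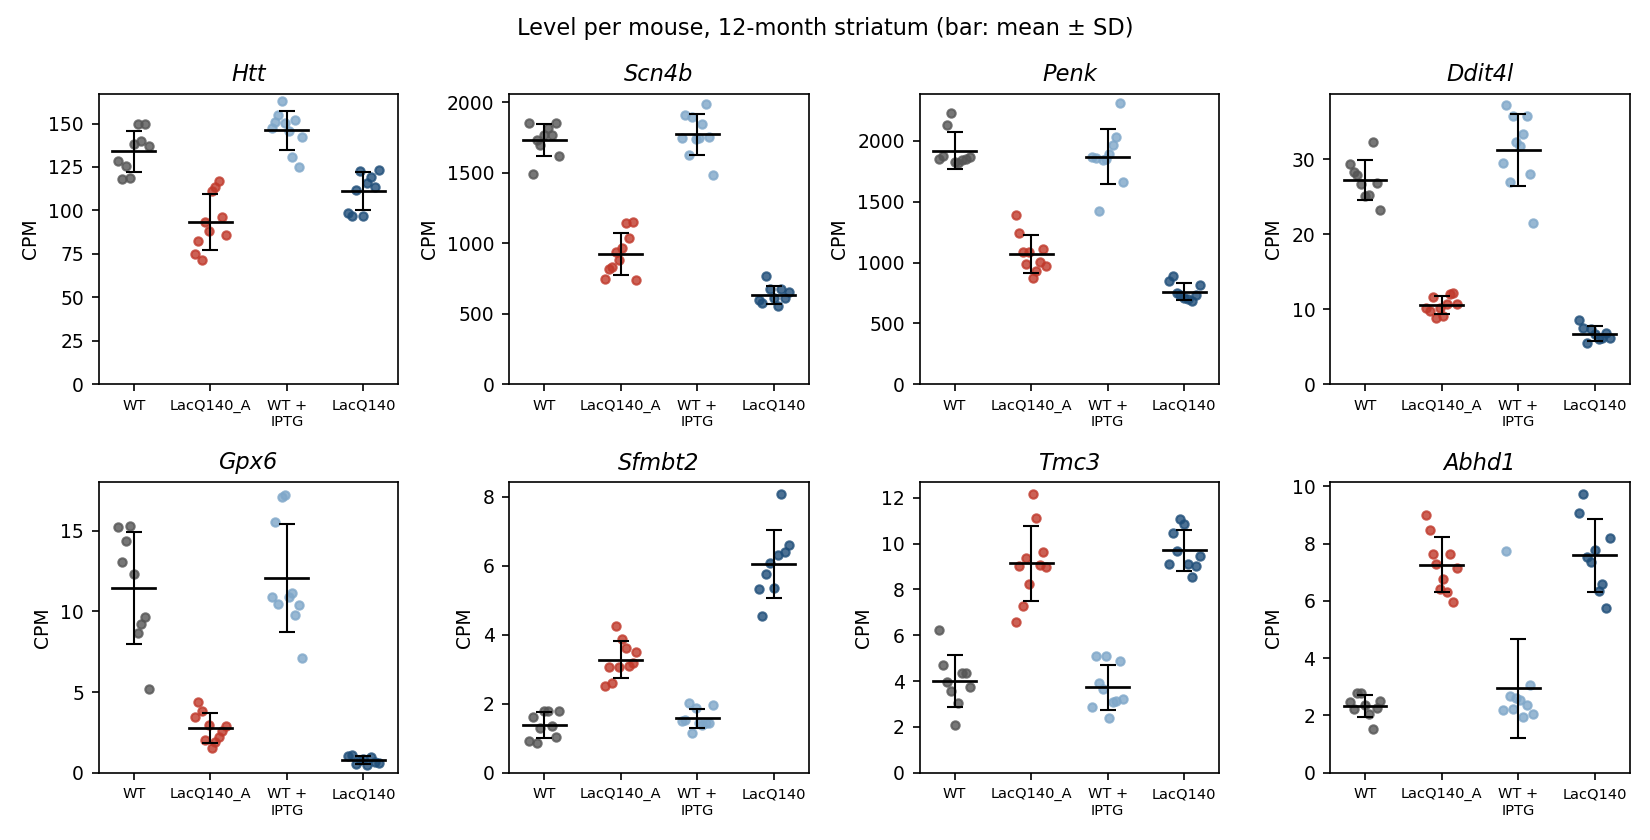
Level of 8 genes in CPM (y axes, from 0) in each mouse of 4 groups of the 12-month striatum, with the mean and SD as bars. For *Htt*, *Scn4b*, *Penk*, *Ddit4l* and *Gpx6* every LacQ140_A library lies under every WT library, and for *Sfmbt2*, *Tmc3* and *Abhd1* every LacQ140_A library lies above; the highest WT + IPTG value of *Abhd1*, 7.753 CPM, belongs to 1 mouse.

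Many receptors of spiny neurons were lower. Of 23 receptor genes tested, 11 fell, 1 rose and 11 were not called, and the median log2 fold change was -0.284, against 0.000 over all genes tested. The share called was 52.2%, beside 3.15% of all genes and 6.34% of the 13403 genes with a mean log2 CPM of at least 1, and the same backgrounds hold for each list below. *Drd1*, the D1 receptor, was at 216.2, 238 and 291.3 CPM in WT and 133.2, 164.9 and 227.7 CPM in LacQ140_A. *Drd2*, the D2 receptor, was at 268.7, 311.2 and 332.3 CPM in WT and 195.9 CPM at the lowest and 207.9 at the median in LacQ140_A. Both overlapped between the groups at their edges, and both fell, by 0.53 (SE 0.078, adjusted p = 1.0e-06) and 0.49 (SE 0.069, adjusted p = 3.6e-07) on the log2 scale. *Adora2a*, the adenosine receptor of the indirect pathway, did not overlap, at 375.9, 389.5 and 477.9 CPM in WT against 229.5, 254.5 and 289.9 CPM in LacQ140_A (-0.67, adjusted p = 1.9e-12). *Cnr1*, the cannabinoid receptor, fell by 0.67 and did not overlap either. The largest receptor changes were those of *Mas1* (-1.21, an angiotensin-(1-7) receptor) and *Gpr139* (-0.96, an orphan receptor). *Htr2c*, a serotonin receptor, was the member that rose (0.49).

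*Penk*, which encodes the enkephalin precursor of indirect pathway neurons, was at 1820, 1848 and 2233 CPM in WT and at 871.1, 1044 and 1390 CPM in LacQ140_A. The libraries did not overlap and the log2 fold change was -0.85 (SE 0.074, adjusted p = 1.2e-13). *Tac1* and *Pdyn*, the substance P and dynorphin precursors of direct pathway neurons, were not called (0.02, adjusted p = 1.0, and -0.22, adjusted p = 0.084). Of 9 peptide or secreted factor genes, 6 fell and 1 rose (*Nts*, neurotensin, 0.58), or 77.8% called against 3.15% of all genes. Among those that fell were *Crh* (corticotropin releasing hormone, -1.09), *Cartpt* (a peptide precursor, -0.80) and *Rbp4* (retinol binding protein, -0.62). The *Crh* and *Cartpt* calls were lost with DESeq2, at adjusted p = 0.070 and 0.075. The *Crh* call was also lost without WT female 2, female 3, male 3 or male 5, or without LacQ140_A female 3, male 2, male 3, male 4 or male 5 (highest adjusted p = 0.156, log2 fold change -0.86, without WT male 5). The *Cartpt* call was lost without WT female 5, male 1 or male 2, or without LacQ140_A female 3, female 4, male 1, male 2, male 4 or male 5 (highest adjusted p = 0.284, log2 fold change -0.52, without WT male 1). With WT and WT + IPTG pooled, *Cartpt* was at -0.41 (adjusted p = 0.366) and *Crh* at -0.82 (adjusted p = 0.082), and *Cartpt* also missed with only the compared groups (adjusted p = 0.068) and with the replicate block (adjusted p = 0.076).

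The dopamine and cAMP cascade, which carries receptor signals to protein kinase A targets had 20 of 34 genes lower and none higher, or 58.8% called against 3.15% of all genes and 6.34% of those with a mean log2 CPM of at least 1 (median log2 fold change -0.356). *Pde10a*, the phosphodiesterase of spiny neurons, was at 1174, 1385 and 1596 CPM in WT against 537, 799.5 and 1093 CPM in LacQ140_A. *Adcy5*, their main adenylyl cyclase, was at 1265, 1505 and 1619 CPM against 835.7, 986.6 and 1160 CPM. *Ppp1r1b*, which encodes DARPP-32, was at 2701, 2995 and 3368 CPM against 1766, 2022 and 2587 CPM. None of the 3 overlapped, and the log2 fold changes were -0.75 (SE 0.087), -0.57 (SE 0.055) and -0.53 (SE 0.072), with adjusted p-values of 1.4e-09, 3.7e-12 and 1.2e-07. Further decreases were those of *Ptpn7* (a tyrosine phosphatase, -0.92), *Rgs14* (a regulator of G protein signaling, -0.78) and *Arpp21* (a cAMP-regulated phosphoprotein, -0.63).

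Among ion channel and calcium genes 19 of 41 fell and 1 rose, or 48.8% called against 3.15% of all genes and 6.34% of the expressed ones (median -0.263). *Scn4b*, the sodium channel beta-4 subunit, was at 1495, 1769 and 1853 CPM in WT and at 738.9, 910.4 and 1149 CPM in LacQ140_A. This gap between the lowest WT and the highest LacQ140_A library went with a decrease of -0.91 on the log2 scale (SE 0.062, adjusted p = 2.9e-18). *Ryr1*, a calcium release channel, fell by 0.92, but its libraries overlapped, since male 3 of LacQ140_A held 27.43 CPM and the lowest WT library 25.94 CPM. *Kcnh4*, a voltage-gated potassium channel, fell by 0.62 without overlap, and *Scn9a*, a sodium channel of peripheral neurons, rose by 0.58.

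Synaptic scaffold and cytoskeleton genes fell in 14 of 30 cases, with none higher (46.7% called against 3.15% of all genes and 6.34% of the expressed ones, median -0.250), led by *Ddn* (dendrin, -0.56), *Wipf3* (an actin regulator, -0.52), *Anks1b* (a postsynaptic scaffold, -0.48) and *Lzts3* (a spine protein, -0.47). Of 36 glutamate and GABA receptor genes 4 fell and none rose (11.1% called), with a median of -0.082. The 4 were *Neto2* (a kainate receptor auxiliary subunit, -0.62), *Gabrd* (the GABA-A delta subunit, -0.40), *Grm5* (a metabotropic receptor, -0.35) and *Grik2* (a kainate receptor, -0.29, under 20% without WT female 2 or LacQ140_A female 3 and with WT and WT + IPTG pooled). Transcription factors of spiny neurons fell in 8 of 34 cases (23.5% called), with none higher and a median of -0.043. *Zbtb18* (a neuronal repressor, -0.49), *Lmo2* (a LIM-only cofactor, -0.49), *Rarb* (-0.43) and *Rxrg* (-0.40), both nuclear receptors for retinoids, were the largest of these.

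**Figure D2:**
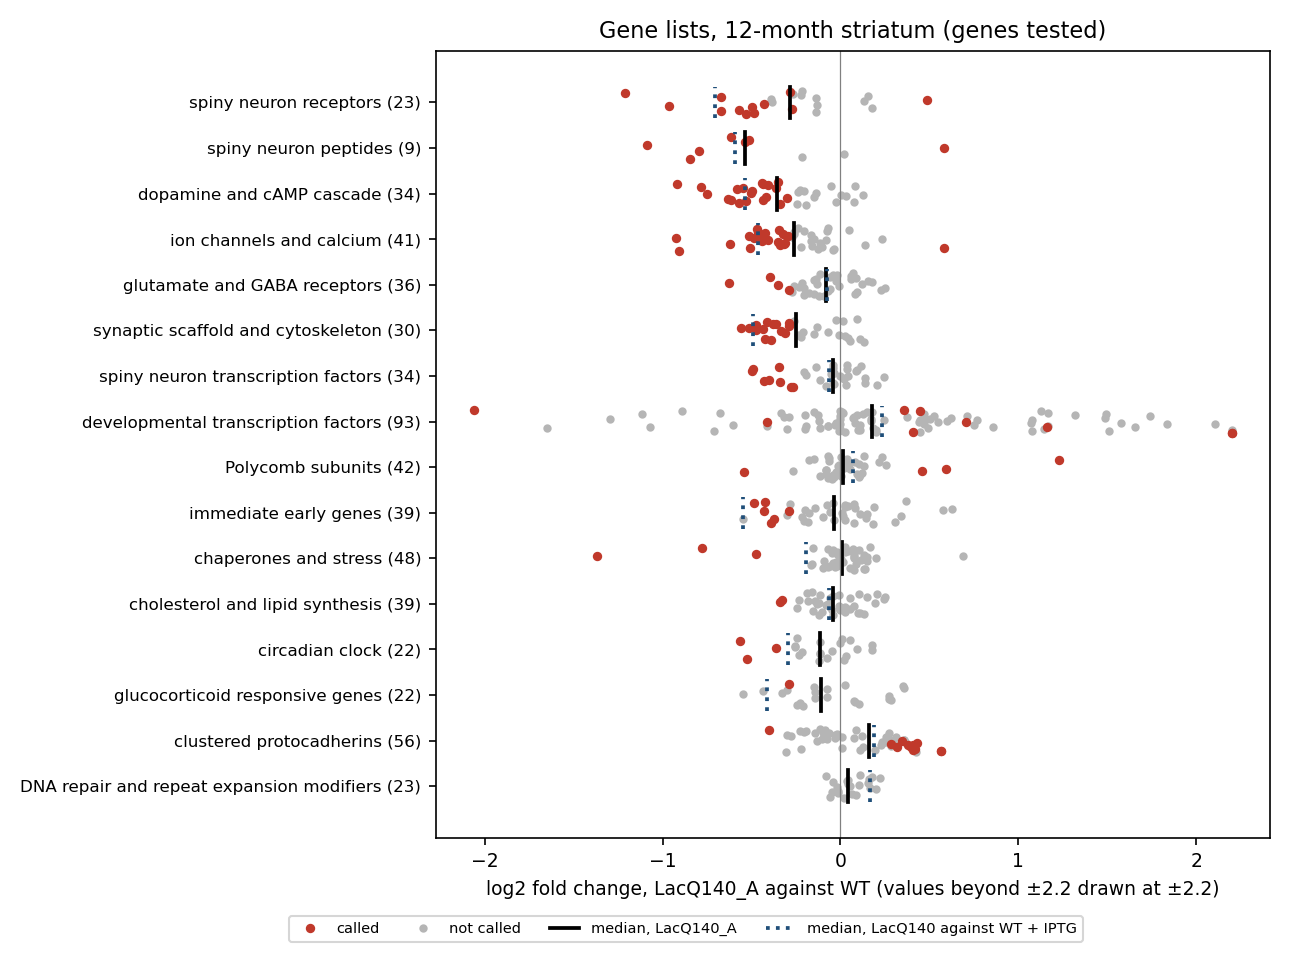
Log2 fold change of LacQ140_A against WT (x axis) for the members of 16 gene lists (y axis, number tested in parentheses), with called genes in red, the median of the list as a black line and its median in LacQ140 against WT + IPTG as a dotted blue line. In the upper lists, of receptors, peptides, cascade, channels and scaffolds, called members lie mostly on the left, with medians from -0.536 to -0.250 in LacQ140_A.

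*Acy3*, an aminoacylase, was at 1.713, 2.04 and 2.772 CPM in WT and at 3.81, 4.944 and 6.104 CPM in LacQ140_A. *Tmc3*, a transmembrane channel-like gene, was at 2.065, 3.959 and 6.218 CPM in WT and at 6.568, 9.046 and 12.18 CPM in LacQ140_A. *Chdh*, the choline dehydrogenase, was at 8.319, 11.08 and 14.06 CPM in WT and at 18.59, 20.83 and 23.61 CPM in LacQ140_A. For each of the 3 the lowest LacQ140_A library lay above the highest WT library, with log2 fold changes of 1.25 (adjusted p = 2.2e-13), 1.2 (adjusted p = 8.6e-12) and 0.91 (adjusted p = 8.8e-16). The other 5 of the 8 largest increases without overlap, at a mean log2 CPM of at least 1, were *Abhd1* (1.63), *Slc45a3* (a sugar transporter of oligodendrocytes, 1.40), *Sfmbt2* (1.23), *Tmprss5* (a serine protease, 1.09) and *1500035N22Rik* (0.78).

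Some developmental transcription factors, near silent in WT striatum, were higher in LacQ140_A. *Wt1*, which shapes kidney and gonad, had 1 to 7 counts in the WT libraries and 36 to 85 counts in the LacQ140_A libraries, without overlap. The fitted log2 fold change, which depends on the prior count at such low levels, was 3.86 (SE 0.281, adjusted p = 1.9e-17). *Onecut1*, a homeodomain factor of liver and neural progenitors, had 0 to 7 counts in WT, with 5 of 9 libraries at 0, and 5 to 29 counts in LacQ140_A (adjusted p = 4.1e-05). The LacQ140 libraries held 128 to 256 counts of *Wt1* and 34 to 131 counts of *Onecut1*. The difference between the effects passed the test for *Onecut1* (adjusted p = 0.035) but not for *Wt1* (adjusted p = 0.11). Of 93 developmental factors tested 7 rose and 2 fell, or 9.68% against 3.15% of all genes. The list includes many genes of very low level, since 17 of 93 reached a mean log2 CPM of 1. Other increases were those of *Hoxd1* (1.16, at 1 to 8 counts in WT and 3 to 19 in LacQ140_A, a call lost without WT female 5 or LacQ140_A male 5 and with only the compared groups in the fit), *En2*, *Runx2* and *Hes6*, and besides *Mafa* the other decrease was *Gbx1* (-0.41).

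Subunits of the Polycomb complexes, which keep developmental genes silent, had 3 of 42 genes higher and 1 lower, or 9.52% called against 3.15% of all genes and 6.34% of genes with a mean log2 CPM of at least 1, at a median of 0.016. *Sfmbt2*, a Polycomb group protein, rose from 0.8483, 1.347 and 1.803 CPM to 2.505, 3.137 and 4.245 CPM without overlap (adjusted p = 1.6e-11). *Cbx8*, a reader of the Polycomb mark, rose by 0.59 (adjusted p = 2.5e-07), and *Epop*, a cofactor, fell by 0.54. Clustered protocadherins, adhesion proteins that give neurons surface identities, rose in 12 of 56 cases and fell in 1 (23.2% called, beside 1.25% of all genes higher and 1.91% lower, median 0.160). The largest rises were those of *Pcdhb4* (0.57), *Pcdhb3* (0.57), *Pcdhb22* (0.43) and *Pcdhb9* (0.42), all with overlap between the groups. These genes are similar in sequence and share their region with other annotated models, so that counts of single members are uncertain.

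None of the members of the lists of cell stress and cell state rose. Of 13403 genes with a mean log2 CPM of at least 1, 6.34% were called. Of 48 chaperone and stress genes 3 fell, *Ddit4l*, *Trib3* (a stress-induced pseudokinase, -0.78) and *Atf6* (a sensor of the endoplasmic reticulum, -0.48), and the median was 0.009. Immediate early genes fell in 6 of 39 cases, including *Pim1* (-0.49), *Ier3* (-0.43), *Homer1* (-0.42) and *Fosl1* (-0.39), with a median of -0.035. *Ier3* was not called in LacQ140 (0.11, adjusted p = 0.60), and the difference between its effects passed the test (adjusted p = 0.036). Of 22 clock genes 3 fell, *Ciart* (-0.57), *Npas2* (-0.52) and *Dbp* (-0.36). Of 39 genes of cholesterol and lipid synthesis 2 fell, among them *Insig1* (-0.34), a regulator of sterol synthesis, and of 22 glucocorticoid responsive genes 1 fell, *Klf9* (-0.29). The *Klf9* call was lost without LacQ140_A female 1 or male 5 or WT male 3, where its log2 fold change was between -0.26 and -0.24, and with only the compared groups in the fit (-0.29, adjusted p = 0.051). None of 23 DNA repair genes that modify repeat expansion was called, and their median was 0.043.

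Markers that define spiny neurons fell in 11 of 16 cases (68.8% called against 3.15% of all genes and 6.34% of the expressed ones), and their summed level went from 9549 to 10850 CPM in WT to 6729 to 8363 CPM in LacQ140_A, without overlap. In tissue RNA, fewer spiny neurons and less RNA of these genes per neuron cannot be told apart. The 5 markers that were not called, named after their values were seen, were *Gad1* and *Gad2*, the GABA-synthesizing enzymes (0.05, adjusted p = 0.77, and -0.09, adjusted p = 0.45), *Isl1* (0.14, adjusted p = 0.41), *Tac1* and *Pdyn*. No marker was called of 12 for microglia, 12 for striatal interneurons, 13 for endothelium and pericytes, 11 for choroid plexus and ependyma, 6 for pituitary and 5 for blood. The summed level of microglial markers was 686.4 to 812.8 CPM in WT and 682.2 to 810.5 CPM in LacQ140_A (median log2 fold change -0.018). For endothelium and pericytes it was 515.6 to 604.5 CPM in WT and 463.6 to 560.6 CPM in LacQ140_A (median -0.147). For striatal interneurons it was 513.4 to 605.5 CPM and 492.9 to 646.1 CPM (median -0.129), and their marker *Lhx8* (-0.26, adjusted p = 0.026) missed only the 20% bound. No marker list of these had all its genes, or any gene, at 0 in a whole group. Among 10 astrocyte markers *S100b* rose (0.29) and *Slc1a2* fell (-0.29), and the summed level was 4176 to 4756 CPM in WT and 3845 to 4405 CPM in LacQ140_A. Among 10 oligodendrocyte markers 1 rose (*Opalin*, 0.41) and 1 fell, and the summed level was 13040 to 16250 CPM in WT and 10690 to 18130 CPM in LacQ140_A. Of 6 precursor markers *Olig1* rose (0.35), and of 10 markers of cortical projection neurons *Cux2* rose (0.46), with sums of 169.0 to 253.5 CPM in WT and 181.6 to 319.2 CPM in LacQ140_A. The *S100b* change fell under 20% without LacQ140_A female 3 (0.24). The part of these cell types in the gene changes was not tested. As a measure of RNA quality, the slope of log2 CPM on log2 transcript length was 0.2099 to 0.3589 in WT and 0.1277 to 0.4163 in LacQ140_A, and 1286 genes were called with the slope as a covariate.

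The changes in LacQ140_A were then set beside those of LacQ140 against WT + IPTG, where the study describes m*Htt* expression as maximal. None of these mice belong to the LacQ140_A and WT groups, though all entered the same fit. LacQ140 and WT + IPTG differed in 3340 genes (9.44% of those tested, with 1620 higher, 4.58%, and 1720 lower, 4.86%). Of the 1116 genes called in LacQ140_A, 851 were also called there (76.3%), 850 of them in the same direction and 1, *Gm26527*, in the opposite direction. Seen from the other side, 25.5% of the LacQ140 genes were called in LacQ140_A. The share was 31.3% of the lowered genes and 19.3% of the raised genes. These sets differ in level, since 1369 of 1720 lowered and 984 of 1620 raised genes had a mean log2 CPM of at least 1. Of the 3340 LacQ140 genes, 2951 (88.4%) had the same sign in LacQ140_A. The median share of the LacQ140 effect that was present in LacQ140_A, as the ratio of the log2 fold changes, was 0.452, with quartiles of 0.208 and 0.669. It was 0.488 for lowered genes, whose median went from -0.480 in LacQ140 to -0.235 in LacQ140_A. It was 0.399 for raised genes, with medians of 0.524 and 0.204. These genes were chosen by their call in LacQ140, the divisor of the ratio, which by itself tends to make the share smaller. The median share was 0.433, 0.377 and 0.280 for LacQ140 genes with an absolute log2 fold change of at least 0.5, 1 and 2. Across all the LacQ140 genes, which are not independent replicates, Pearson's r of the effects was 0.627.

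**Figure D3:**
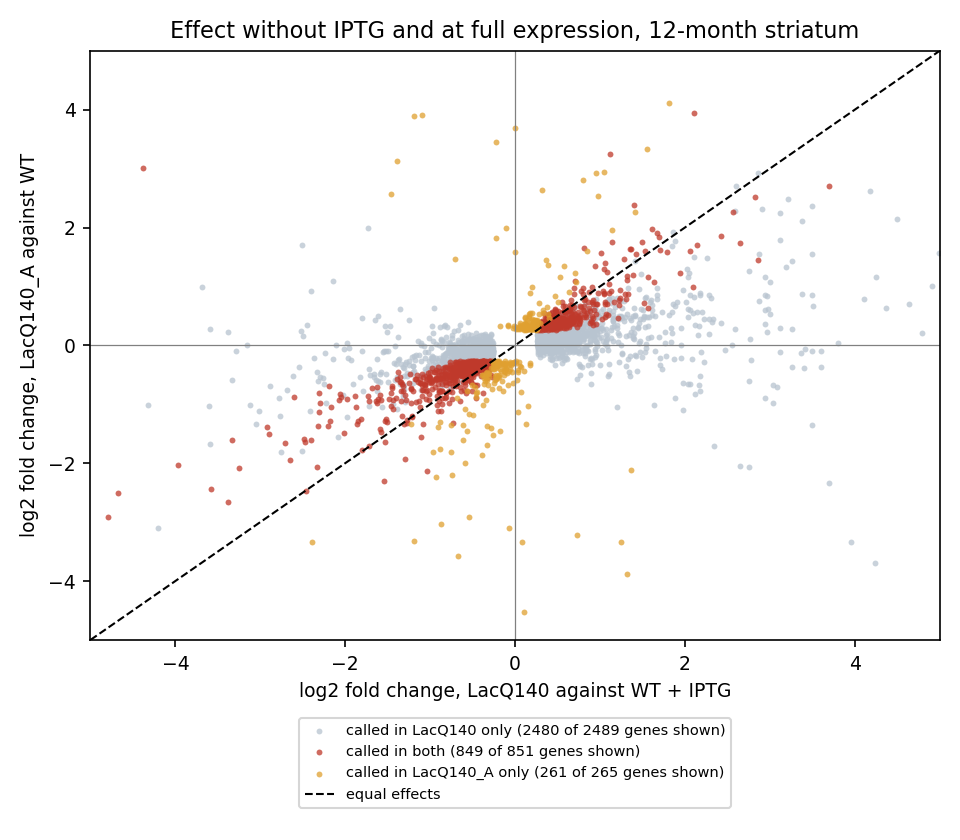
Log2 fold change of LacQ140_A against WT (y axis) over that of LacQ140 against WT + IPTG (x axis), per gene, in the 12-month striatum, with the dashed line at equal effects. Of the genes called in both (red), all but 1 lie in the lower left and upper right quadrants, at a median size of 0.446 (log2) in LacQ140_A and 0.606 in LacQ140; the few genes beyond 5 on either axis are not drawn.

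The effects themselves differed for 288 genes (0.814% of those tested, adjusted p under 0.05 for the difference). Of these, 259 were LacQ140 genes, for which the choice by a call in LacQ140 and by a difference nearly fixes a smaller effect in LacQ140_A, and 68 of them had the opposite sign there. After lifelong repression 83 of the 259 were still called. The count of 288 was 557 with the length slope as a covariate, 419 with another gene filter and 192 with only the compared groups in the fit. The smallest p-values for the difference were those of *Gm19410*, *Abhd11os*, *Gpx6* and *Emx2os*. *Abhd11os*, annotated as a transcribed pseudogene that overlaps *Abhd11*, was at 15.21, 20.4 and 25.43 CPM in WT, at 7.616, 11.07 and 20.67 CPM in LacQ140_A and at 2.064, 4.088 and 6.463 CPM in LacQ140. The effect was -0.80 in LacQ140_A and -2.30 in LacQ140, and the difference was 1.5 (adjusted p = 6.5e-06). *Gpx6* fell by 2.04 in LacQ140_A and by 3.97 in LacQ140 (difference 1.93, adjusted p = 6.5e-06). *Gm19410*, annotated as protein coding, had effects of -0.70 and -1.45 (difference 0.75, adjusted p = 6.5e-06). *Emx2os*, antisense to the forebrain homeobox gene *Emx2*, was at 1.92 to 3.12 CPM in LacQ140_A and at 1.342 to 2.554 CPM in WT, and was not called (0.32, adjusted p = 0.18), whereas it rose by 1.53 in LacQ140. Since the strand of the libraries is not given in the sources used here, reads of an overlapping gene and its partner may not be told apart.

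Among the 7 striatal genes that the study names the difference passed the test for *Scn4b* (-0.91 in LacQ140_A and -1.48 in LacQ140, adjusted p = 4.6e-05), *Penk* (-0.85 and -1.30, adjusted p = 0.017), *Adcy5* (-0.57 and -0.91, adjusted p = 0.017) and *Drd2* (-0.49 and -0.86, adjusted p = 0.041). For *Pde10a* (-0.75 and -1.10, adjusted p = 0.22), *Drd1* (-0.53 and -0.82, adjusted p = 0.27) and *Ppp1r1b* (-0.53 and -0.78, adjusted p = 0.33) it did not pass. Of the other spiny neuron genes named above it also passed for *Adora2a* (adjusted p = 0.017), *Cnr1* (adjusted p = 0.028), *Ptpn7* (adjusted p = 0.0098), *Rgs14* (adjusted p = 0.048), *Arpp21* (adjusted p = 0.023) and *Ryr1* (adjusted p = 2.7e-05), among others. Genes with nearly the same estimate in the presence and absence of IPTG included *Mas1* (-1.21 and -1.22), *Rbp4* (-0.62 and -0.62), *Chdh* (0.91 and 0.87) and *Tmc3* (1.2 and 1.38), with adjusted p-values for the difference of 1.0, 1.0, 1.0 and 0.85. A difference that does not pass the test does not show equal effects, and the standard errors of these estimates lay between 0.071 and 0.139 in LacQ140_A.

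A list of 266 genes altered in several Huntington's disease mouse models was available from the study, which describes it as established earlier. Whether libraries of this series entered its choice is not stated in the sources used here, so its direction is not taken as independent evidence. Of its 266 genes, 218 were called in LacQ140_A in the listed direction and none against it. These were 163 of 195 lowered and 55 of 71 raised genes, at a background of 3.15% called over all genes. The sign was as listed for all but 2 genes. The median share of the LacQ140 effect was 0.603, and 262 genes were called in LacQ140.

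A score per mouse, the mean signed change of the LacQ140 genes scaled so that WT + IPTG averages 0 and LacQ140 averages 1, was computed from log2 CPM. WT + IPTG mice scored from -0.130 to 0.244, so that the highest overlapped WT. WT mice scored 0.117 at the lowest, 0.212 at the median and 0.286 at the highest. LacQ140_A mice scored 0.432, 0.676 and 0.760. Every LacQ140_A mouse thus lay above every WT mouse and under every LacQ140 mouse, whose scores began at 0.888. The genes were chosen on the LacQ140 and WT + IPTG mice, which fixes the places of those groups. The 0 of the score is that of WT + IPTG, while WT, the control of LacQ140_A, averaged 0.202 and LacQ140_A averaged 0.638. A LacQ140_A score is therefore not the part of the LacQ140 effect that remained. Within LacQ140_A the females scored 0.666 to 0.760 and the males 0.432 to 0.729, with male 4 lowest and males 2 and 3 next, at 0.525 and 0.524. The slope on transcript length was 0.3445 to 0.4163 in males 2, 3 and 4 and 0.1277 to 0.1796 in females 1 to 3, but 0.3963 in male 1, which scored 0.680, and its part in the scores was not tested. Mice whose allele was repressed from 2 months (LacQ140_2M, given IPTG until then) scored 0.609, 0.702 and 0.862, and overlapped LacQ140_A. Mice repressed from 8 months (LacQ140_8M) scored 0.707, 0.851 and 0.908, and overlapped both LacQ140_A and LacQ140. No test was made on these scores.

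**Figure D4:**
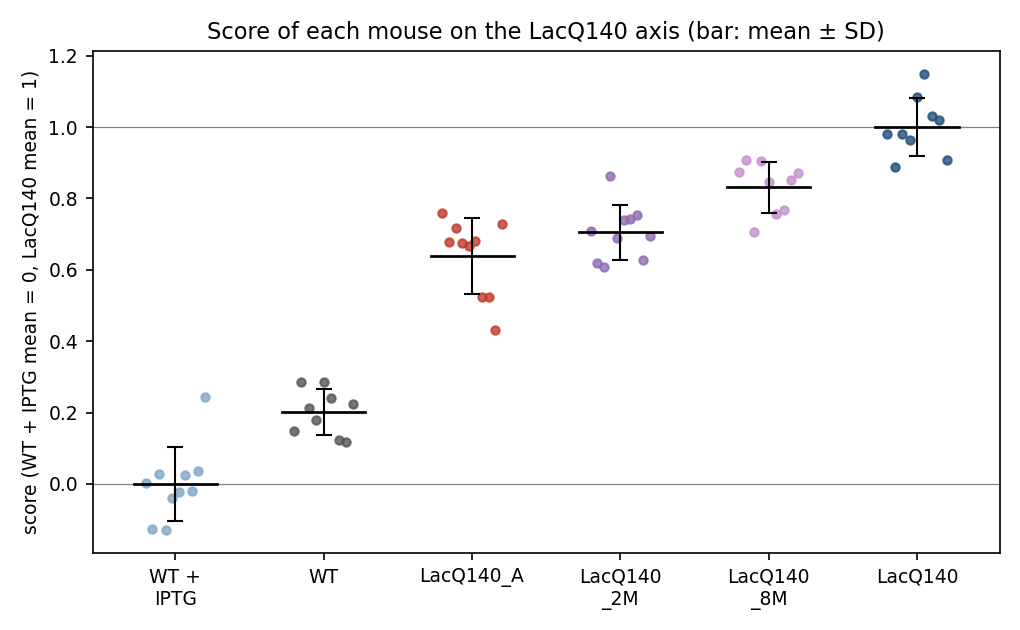
Score of each of 57 mice on the LacQ140 axis (y axis, no unit, WT + IPTG mean at 0 and LacQ140 mean at 1) by group (x axis), with the mean and SD as bars. The 10 LacQ140_A mice, between 0.432 and 0.760, lie above the 9 WT mice, between 0.117 and 0.286.

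IPTG alone, in WT + IPTG against WT, went with 77 called genes (0.218%, with 0.136% higher and 0.082% lower), a comparison that shares the 9 WT libraries with that of LacQ140_A.

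In LacQ140_A 265 genes were called that were not called in LacQ140, 128 higher and 137 lower, and their median size of change was 0.444 on the log2 scale. Of these, 226 had the same sign in LacQ140, and for 7 the difference between the effects passed the test. Of the 4 largest by the rule for named genes, *G530011O06Rik* and *Mid1* overlap each other on chromosome X. *Mid1*, a ubiquitin ligase, was at 5.797, 15 and 25.45 CPM in WT and at 6.847, 8.47 and 13.37 CPM in LacQ140_A. *G530011O06Rik*, a noncoding RNA, was at 1.018, 3.714 and 5.749 CPM in WT and at 0.501, 1.728 and 3.158 CPM in LacQ140_A. WT female 3 was the lowest WT library for both genes, so that the groups overlapped, and the log2 fold changes were -0.77 (SE 0.182, adjusted p = 0.0035) and -1.13 (SE 0.249, adjusted p = 0.0014). In LacQ140 they were at -0.14 and 0.04, and the differences did not pass the test (adjusted p = 0.33 and 0.085). The other members of the 4 were *Slitrk6*, a synaptic adhesion protein (0.83, adjusted p = 0.013), and *Cartpt* (-0.80, adjusted p = 0.040), both with overlap, and the *Slitrk6* call was lost without LacQ140_A male 5 (0.71, adjusted p = 0.056) and with WT and WT + IPTG pooled (0.51, adjusted p = 0.086).

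Genes near *Htt* on chromosome 5, where the knock-in lies, were examined apart. Within 20 Mb of *Htt* on either side 18 of 614 genes were higher and 16 lower, or 5.54%, against 2.24% on the rest of chromosome 5 and 3.16% on other chromosomes. By distance the share was 4.33% within 5 Mb, 9.35% from 5 to 10 Mb (139 genes) and 4.51% from 10 to 20 Mb. Among genes with a mean log2 CPM of at least 1 it was 8.74% within 20 Mb and 6.35% on other chromosomes. *Abhd1*, a hydrolase gene at -3.81 Mb from *Htt* that overlaps *Preb* on the other strand, was at 1.521, 2.377 and 2.8 CPM in WT and at 5.968, 7.207 and 9.002 CPM in LacQ140_A. It rose by 1.63 (SE 0.145, adjusted p = 1.7e-13), and the difference from its effect in LacQ140 (1.37) did not pass the test (adjusted p = 0.76). *5031410I06Rik*, annotated as protein coding and at -8.66 Mb from *Htt*, had 0 to 5 counts in WT, with 6 of 9 libraries at 0, and 15 to 44 counts in LacQ140_A (adjusted p = 8.7e-07). *Adra2c*, an adrenergic receptor 0.37 Mb after *Htt*, fell by 0.39 without overlap (adjusted p = 3.1e-06). In 1 WT + IPTG mouse, female 2, *Abhd1* was at 7.753 CPM and *5031410I06Rik* at 0.681 CPM, within the LacQ140_A range. Its *Htt* level of 151.0 CPM and its score of -0.127 lay within the WT + IPTG range.

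At 6 months, in other mice, 326 genes were called between LacQ140_A and WT (0.91% of 35808, with 154 higher, 0.43%, and 172 lower, 0.48%), against 1116 at 12 months. The 6-month count moved to between 165 and 543 when single libraries were left out. It was 131 with only the compared groups in the fit and 860 with WT and WT + IPTG pooled, against 1018 and 1495 at 12 months. The tables of the ages were deposited apart, and the difference between ages was not tested. Of the 12-month genes, 75 (6.72%) were called at 6 months, which is 23.0% of the 6-month genes, and 67 of the 75 had the same direction. The sign was shared by 785 of 1113 genes tested at both ages (70.5%). The lowered genes had a median log2 fold change of -0.455 at 12 months and -0.053 at 6 months, and the raised genes 0.434 and 0.140. These genes were chosen by their change at 12 months, which by itself makes the 12-month medians the larger. Of the 326 genes called at 6 months, 202 had the same sign at 12 months. At 6 months LacQ140 differed from WT + IPTG in 2840 genes (7.93%, with 3.97% higher and 3.96% lower). Over 1278 genes called in LacQ140 at both ages in the same direction, the median share of the LacQ140 effect in LacQ140_A was 0.354 at 6 months and 0.460 at 12 months.

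*Scn4b* was at 1119, 1660 and 2079 CPM in 6-month WT and at 1353, 1523 and 1806 CPM in 6-month LacQ140_A, with full overlap and no call (-0.08, adjusted p = 0.73). *Pde10a* (-0.15, adjusted p = 0.43), *Adcy5* (-0.06, adjusted p = 0.79), *Adora2a* (-0.11, adjusted p = 0.58), *Gpx6* (-0.46, adjusted p = 0.10) and *Mafa* (-0.20, adjusted p = 0.62) were not called at 6 months either. *Tmc3* was at 1.969, 2.694 and 3.818 CPM in 6-month WT and at 4.822, 5.698 and 6.802 CPM in LacQ140_A, without overlap, and rose by 1.05 (adjusted p = 9.8e-10). *Acy3* rose by 1.04 (adjusted p = 9.9e-10), *Abhd1* by 1.21 (adjusted p = 1.6e-07) and *Chdh* by 0.56 (adjusted p = 0.0012). *Ddit4l* fell by 0.58 (adjusted p = 1.1e-04), *Krt9* by 0.52 (adjusted p = 0.0013), *Htt* by 0.40 (adjusted p = 2.3e-04) and *Penk* by 0.29 (adjusted p = 0.0010), so that *Penk* was the spiny neuron peptide called at both ages. At 6 months 3 of 6 pituitary markers were also called, at a median of 2.94 over the list, and their part in the 6-month result was not tested.

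**Figure D5:**
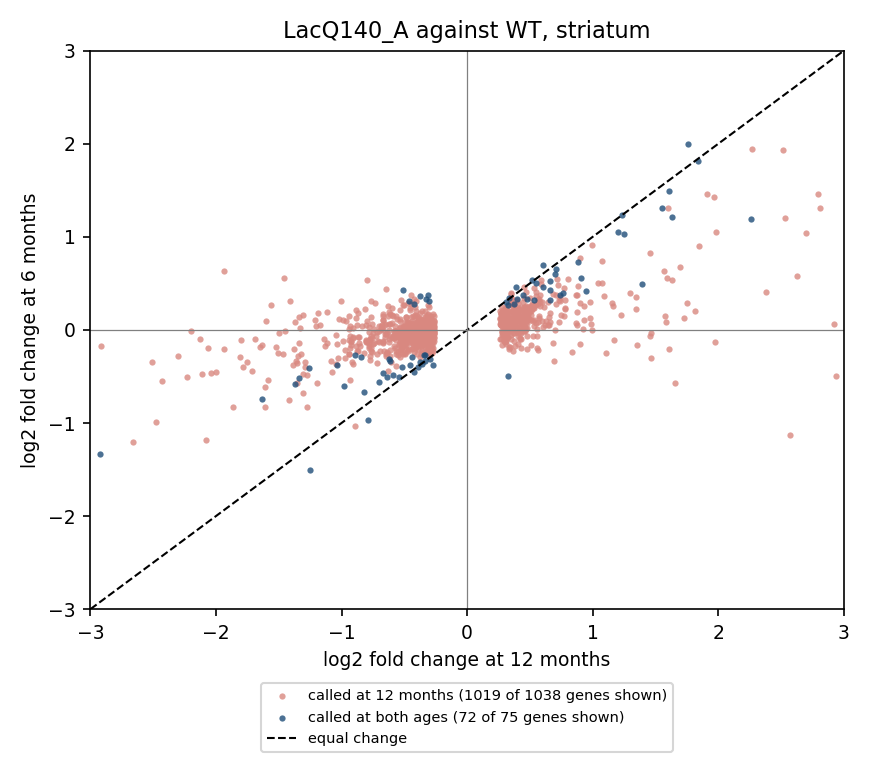
Log2 fold change of LacQ140_A against WT in striatum at 6 months (y axis) over that at 12 months (x axis) for the genes called at 12 months, with genes called at both ages in blue and the dashed line at equal change. Most points lie near 0 on the y axis, with medians of -0.053 for lowered and 0.140 for raised genes; points beyond 3 on either axis are not drawn.

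In the cortex of the 12-month mice, 6 genes were called between LacQ140_A and WT (0.0174% of 34493), and 1997 genes had an unadjusted p under 0.05, or 5.79%. The count was 11 with DESeq2, 58 with the length slope as a covariate and 4 to 12 without single libraries, the most without LacQ140_A female 4 (11) and WT female 4 (12). The 6 genes, 4 higher (0.0116%) and 2 lower (0.0058%), were all called in striatum too. Both tissues came from the same mice, apart from WT female 4 without a striatal library, so this is no independent repeat. The standard error was larger in cortex than in striatum for some genes, such as *Htt* (0.131 and 0.069) and *Scn4b* (0.160 and 0.062). It was alike for others, such as *Abhd1* (0.145 in both). Power was not compared between the tissues, so the smaller count does not show an unchanged cortex. *Abhd1* was at 2.071, 2.473 and 3.592 CPM in WT cortex and at 4.443, 6.974 and 8.278 CPM in LacQ140_A cortex, without overlap (1.36, adjusted p = 9.0e-10). *Htt* fell by 0.72 (adjusted p = 0.0041) and *G530011O06Rik* by 1.42 (adjusted p = 0.0028). *S100b*, a calcium-binding protein of astrocytes (0.41, adjusted p = 0.0028), *Cldn14*, a tight junction claudin (0.93, adjusted p = 0.024), and *Enpp6*, a choline phosphodiesterase of new oligodendrocytes (0.67, adjusted p = 0.024), rose. Of the striatal genes 727 of 1115 tested had the same sign in cortex (65.2%), at medians of -0.085 for the lowered and 0.060 for the raised.

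No difference between females and males in the LacQ140_A effect was detected. No gene passed an adjusted p of 0.05 with edgeR's quasi-likelihood test or with DESeq2, and 1532 of 35386 genes (4.33%) had an unadjusted p under 0.05. The autosomal genes with the smallest p were *Aff3*, a transcriptional elongation factor (-0.48 in females and -0.01 in males, adjusted p = 0.64), and *Fam222a* (-0.51 and 0.16, adjusted p = 0.64). Without male 5 of LacQ140_A the difference for *Aff3* passed (0.56, adjusted p = 0.049).

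RefSeq promoters, from 250 bases before to 50 after the start on GRCm38.p6, were matched to 17867 of the genes tested, and the CRE motif shown above for *Htt* (TGACGTCA, which reads the same on the other strand) was sought in them. It stood in 2.68% of all matched genes, in 3.62% of those with a mean log2 CPM of at least 1, in 1.77% of the lowered (8 of 452) and in 4.67% of the raised (14 of 300). The TATA box (TATAAA, either strand) stood in 12.2%, 8.45%, 11.7% and 10.7% of the same sets. These matches describe letters in a window and are not binding sites.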

How the data were processed

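RNA-Seq of total RNA from striatum and cortex gave 217 libraries. The authors deposited gene-level expected counts, of which 32.6% of the nonzero values in the 12-month striatum were not whole, and they were rounded here. The genome build is GRCm38 per the labels. The aligner, the counting tool and the strand used in counting are not given in the sources used here. Of 54532 gene identifiers, 54495 matched GENCODE vM21.

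Genes with at least 1 count over the libraries of a tissue and age entered 1 fit per tissue and age over all its groups, made in R 4.3.3 by the quasi-likelihood method of edgeR 4.0.16 after TMM normalization, and p-values were adjusted by the Benjamini-Hochberg method. A gene was called at an adjusted p under 0.05 and a change of at least 20%. Differences between effects were called on the adjusted p alone. Standard errors are the log2 fold change over the square root of F. DESeq2 1.42.0, other normalization, filters, covariates and left-out libraries were alternatives. Scores used log2 CPM with a prior count of 2. The fit of LacQ140_A against WT was also run on simulated counts with known changes, whose results are not reported here. The LacQ140_A and WT libraries of the 12-month striatum held at least 36106735 counts each, all libraries of that fit at least 33292014, and the spread between mice includes counting error.

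Named genes were *Htt*, 7 striatal genes of the study, the 8 largest changes each way without overlap at a mean log2 CPM of at least 1, up to 4 called members of each list, the 4 largest called in LacQ140_A and not in LacQ140, the 4 with the smallest p for the difference of effects, the 4 called genes within 20 Mb of *Htt* with the smallest p, the 2 autosomal genes with the smallest p between sexes, and genes called in cortex. Other called list members, *Gm26527* and markers that were not called were named after their values were seen. Some called list members are counted but not reported here by name. Members and lists were chosen with earlier results of these data known. Python 3.11.15, pandas 2.3.3, numpy 2.4.6 and matplotlib 3.10.9 made the summaries and plots.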

Additional observations from a re-analysis of the deposited data

Results flagged for a closer look

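In 13 of 194 groups of values, 1 library lay far from the others of its group by Dixon's test. Chance flags about 1 in 20 groups. Among the named genes these were, in LacQ140_A, *Mas1* in female 1 (4.962 CPM, next 3.585), *Abhd11os* in female 1 (20.67 CPM, next 14.38), *Ryr1* in male 3 (27.43 CPM, next 18.85), *Pcdhb4* in male 3 (3.268 CPM, next 2.551) and *S100b* in female 3 (331.4 CPM, next 275.9). In WT they were *Neto2* in male 3 (124.8 CPM, next 97.85) and *Gm19410* in male 5 (36.31 CPM, next 42.36).

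Summed marker levels that stood apart were those of cortical projection neurons in WT male 1 (253.5 CPM, next 205.4) and LacQ140_A female 1 (319.2 CPM, next 253.4), of astrocytes in LacQ140_A male 4 (4405 CPM, next 4131), of oligodendrocytes in LacQ140_A female 3 (18130 CPM, next 13750), and of thalamus in WT male 5 (114.9 CPM, next 53.11) and LacQ140_A male 5 (226.8 CPM, next 124.2).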

How the results depend on the processing

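The LacQ140_A count of 1116 genes lay between 1018 and 1286 with DESeq2, its size factors, another filter, sex or the length slope as a covariate, or only the compared groups in the fit, at 1495 with WT and WT + IPTG pooled, and at 1716 without the 20% bound, where the genes shared with LacQ140 went from 850 to 1317. Genes whose effects differed went from 288 to 557 with the length slope. The 6-month count of 326 was 131 with only the compared groups and 860 with WT and WT + IPTG pooled. The cortex count of 6 was 11 with DESeq2, 58 with the length slope, 11 with only the compared groups and 10 with pooled controls. The causes were not tested.

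Leaving out single libraries gave 985 to 1214 genes for LacQ140_A, 3089 to 3565 for LacQ140, 198 to 425 for the difference, 165 to 543 at 6 months, 4 to 12 in cortex, 0 to 1 between sexes, 772 to 924 shared genes and a median share of 0.4217 to 0.4748. At 6 months the count was 173, 514, 192, 195, 204, 210 and 543 without LacQ140_A female 2, female 5 and males 1 to 5, and 172, 165 and 214 without WT males 2, 3 and 5. In cortex it was 11 without LacQ140_A female 4 and 12 without WT female 4. Between sexes it was 1 without LacQ140_A male 5.

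Replicate numbers were not taken as pairs in the main fit. Of 9 pairs by number, 3 correlated over 0.1 (range -0.255 to 0.314) and 1 mouse correlated best with its own number. Such correlations, of deviations from means over few mice, cannot exclude a pairing. With the replicate block 1076 genes were called for LacQ140_A, 3237 for LacQ140, 272 at 6 months, 5 in cortex and 0 between sexes. No named gene reversed under any alternative run. Fold changes of low-count genes such as *Onecut1*, with 0 to 7 counts in WT, are uncertain.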
